A study of Mus musculus with 16 samples.

Results

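Succinate lies between enzymes that make it and enzymes that use it, and 10 genes of that segment are described here among 17097 genes with a probe set on the array. The genes were chosen by function: Sdha, Sdhb, Sdhc and Sdhd, the 4 subunits of succinate dehydrogenase, Suclg1, Suclg2 and Sucla2, the subunits of succinyl-CoA ligase, Ogdh and Dlst of the 2-oxoglutarate dehydrogenase complex, and Acod1, the enzyme that makes itaconate. All 10 were found, and each was read from its brightest probe set by mean over the 16 arrays.

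The study deleted Sucnr1, the cell-surface receptor for extracellular succinate, from myeloid cells and profiled macrophages of mouse fat at 19 to 21 weeks of age. All mice carried floxed Sucnr1 alleles. The knockout (KO-LysM, LysM-Sucnr1-/-) also carried Cre driven by the lysozyme M promoter, active in macrophages, monocytes and neutrophils, and the controls (Sucnr1 flox/flox, labelled WT) had no Cre named in the labels. Cells were taken from collagenase-digested subcutaneous fat (SAT) or visceral fat (VAT) with CD11b beads, although another label calls them F4/80+, and the letters NCD in the labels are not spelled out. Each of the 4 groups, WT SAT, WT VAT, KO-LysM SAT and KO-LysM VAT, held 4 pools, 2 on each of 2 days. RNA of 300000 cells was amplified for 24 cycles before hybridisation. Whether pools shared animals is not given, so p-values measure the spread between these pools.

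In the tricarboxylic acid cycle, 2-oxoglutarate dehydrogenase makes succinyl-CoA, succinyl-CoA ligase turns it into succinate, and succinate dehydrogenase oxidises succinate to fumarate and passes the electrons to the respiratory chain as complex II. In activated macrophages the mitochondrial enzyme encoded by Acod1 (also called Irg1) decarboxylates cis-aconitate to itaconate, which inhibits succinate dehydrogenase. Acod1 is a textbook target of Toll-like receptor and interferon signals, whereas the cycle enzymes are expressed in nearly all cells.

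Promoter windows of 4 genes that passed a test are shown, those with a match to TATAAA, an NRF1 core or an ETS sequence. Of the 10 genes, 9 matched RefSeq promoter entries (GRCm38.p6), and Sdhc had no entry. Each window holds the 250 bases before the transcription start, on the strand of the gene, and capitals mark a match to a searched motif. The Acod1 window (chr14:103046762-103047011, plus strand) had 1 match to TATAAA, the core promoter box of that name, 28 bases before the start.
Acod1: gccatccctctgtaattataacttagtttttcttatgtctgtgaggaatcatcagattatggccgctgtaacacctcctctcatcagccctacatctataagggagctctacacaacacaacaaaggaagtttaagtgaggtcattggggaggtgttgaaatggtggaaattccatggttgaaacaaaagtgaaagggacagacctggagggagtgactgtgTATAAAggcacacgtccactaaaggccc
The Sdha window (chr13:74350241-74350490, minus strand) had 3 matches to GCGCANGCG, the core of sites for nuclear respiratory factor 1 (NRF1), at 98, 55 and 10 bases before the start.
Sdha: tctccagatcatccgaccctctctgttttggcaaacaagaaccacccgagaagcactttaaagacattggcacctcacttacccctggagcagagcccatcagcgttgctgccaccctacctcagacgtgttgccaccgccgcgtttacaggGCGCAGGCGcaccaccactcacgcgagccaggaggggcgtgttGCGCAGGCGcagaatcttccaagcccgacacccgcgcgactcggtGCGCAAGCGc
The Sucla2 window (chr14:73552536-73552785, plus strand) had 1 such match, on the opposite strand, at 16 bases.
Sucla2: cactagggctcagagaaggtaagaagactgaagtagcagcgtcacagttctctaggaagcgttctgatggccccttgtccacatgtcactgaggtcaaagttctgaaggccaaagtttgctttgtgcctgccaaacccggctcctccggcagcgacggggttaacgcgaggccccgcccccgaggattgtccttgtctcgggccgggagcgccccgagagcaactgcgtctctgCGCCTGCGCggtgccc
The Sdhd window (chr9:50603850-50604099, minus strand) had the same motif at 79 bases and CCGGAAG, an ETS factor sequence, on the opposite strand at 46 bases.
Sdhd: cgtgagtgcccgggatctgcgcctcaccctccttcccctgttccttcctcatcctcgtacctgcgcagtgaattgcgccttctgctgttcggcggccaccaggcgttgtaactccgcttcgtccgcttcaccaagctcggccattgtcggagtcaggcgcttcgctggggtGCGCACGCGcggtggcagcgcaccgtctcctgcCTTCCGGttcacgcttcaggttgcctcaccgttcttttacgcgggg

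Both strands were searched, and a promoter counted once however many matches it held. Among 32851 promoter windows, 5.163% held GCGCANGCG, 6.907% held CCGGAAG and 12.37% held TATAAA. A pair of interferon-related motifs was also searched, GAAANNGAA (in 7.129% of windows) and TTCNNNGAA (in 7.02%). Suclg1 and Suclg2 held the first of them, and none of the 9 matched members held the second. Of the 6 windows of Ogdh, 2 held GCGCANGCG. No match shown overlaps another. The Acod1 window had a GC content of 44.4% and 2 CpG dinucleotides, and 29.03% of all windows had as few. The windows of Sdha, Sdhd and Sucla2 had 21, 27 and 18 CpG, against a median of 6 over all windows. Suclg1 and Suclg2, which also passed a test, had 15 and 8 CpG and no match to the NRF1 letters. The letters of the NRF1 motif were chosen after the sequences had been seen, and a match is a description of these letters, not a binding site.

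Several facts of the arrays bear on all results. The olfactory receptor genes, which macrophages should not express, gave a background of 4.78 log2 units (95th percentile of 41 genes). Sucnr1 lay below it in every group (means 3.52 to 3.55 log2 units), so its probe set did not check the genotype. Lyz2, the gene whose promoter drives Cre, was at 11.12 log2 units in WT SAT and 9.99 in KO-LysM VAT, and it was lower in the knockout by 0.61 ± 0.10 (SE) over both depots (adjusted p = 0.000573). All 11 measured macrophage markers were above background in every group. Their array means ran from 8.61 to 9.05 in WT SAT and from 7.88 to 8.98 in WT VAT. In KO-LysM SAT they ran from 8.34 to 8.90 and in KO-LysM VAT from 7.69 to 8.39. Array spread, taken as the interquartile range of log2 values, was also wider in the knockout, with 2.52 ± 0.12 for KO-LysM SAT and 2.49 ± 0.11 for KO-LysM VAT. For WT SAT it was 2.20 ± 0.08 and for WT VAT 2.30 ± 0.26 (SD, n = 4). In WT VAT it was 2.01 and 2.15 in the day 1 pools and 2.50 and 2.54 in the day 2 pools.

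Some genes of fat position had depot differences of opposite sign in the 2 genotypes. Of 13 measured genes of a position list, 1 rose and 3 fell in VAT against SAT in WT (2.84% of all genes called). In the knockout, 7 rose and 1 fell (2.39% of all genes fell, and the share that rose is not given). The median difference of the list was -0.19 log2 units in WT, against -0.02 over all genes. In the knockout it was 0.47, against 0.002 over all genes. Emx2, a positional homeobox gene, averaged 6.78 log2 units in WT SAT against 5.45 for WT VAT, but 5.24 for KO-LysM SAT against 8.50 for KO-LysM VAT. Sfrp2, a secreted Wnt modulator, ran the same way at 8.31, 7.28, 7.39 and 9.69, and so by means did Hoxc10, a posterior homeobox gene, at 6.21, 5.70, 5.27 and 6.89. The WT difference of Hoxc10 did not pass (-0.51 log2 units, adjusted p = 0.473, limma). Markers of seminal vesicle, an organ next to visceral fat in males, had array means of 10.06 to 10.76 in KO-LysM SAT and at most 6.13 elsewhere, with 5 of 5 above background there and 1 of 5 in the other groups. Whether depot labels were exchanged within 1 genotype was not tested. Groups are therefore called by their labels, the knockout difference averaged over both depots (which an exchange leaves as it is) is given for each gene, and the crossed pairs are given beside the labelled ones.

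Acod1 was the only member whose knockout difference was not the same in both depots by test. In the pools labelled SAT it was 2.38-fold higher in the knockout, in those labelled VAT its knockout difference did not pass, and within the knockout it was 2.08-fold lower in VAT than in SAT. The values of pools 1 to 4 were 6.55, 6.73, 7.49 and 6.68 log2 units in WT SAT (mean 6.86 ± 0.42, SD, n = 4). In WT VAT they were 6.66, 7.14, 7.76 and 8.27 (7.46 ± 0.71). The KO-LysM SAT pools were highest as a group, at 7.55, 7.88, 8.34 and 8.68 (8.11 ± 0.50), with every pool above every WT SAT pool. In KO-LysM VAT the values were 6.80, 6.48, 7.55 and 7.41 (7.06 ± 0.51), and the highest of them just overlapped the lowest of KO-LysM SAT.

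**Figure D1:**
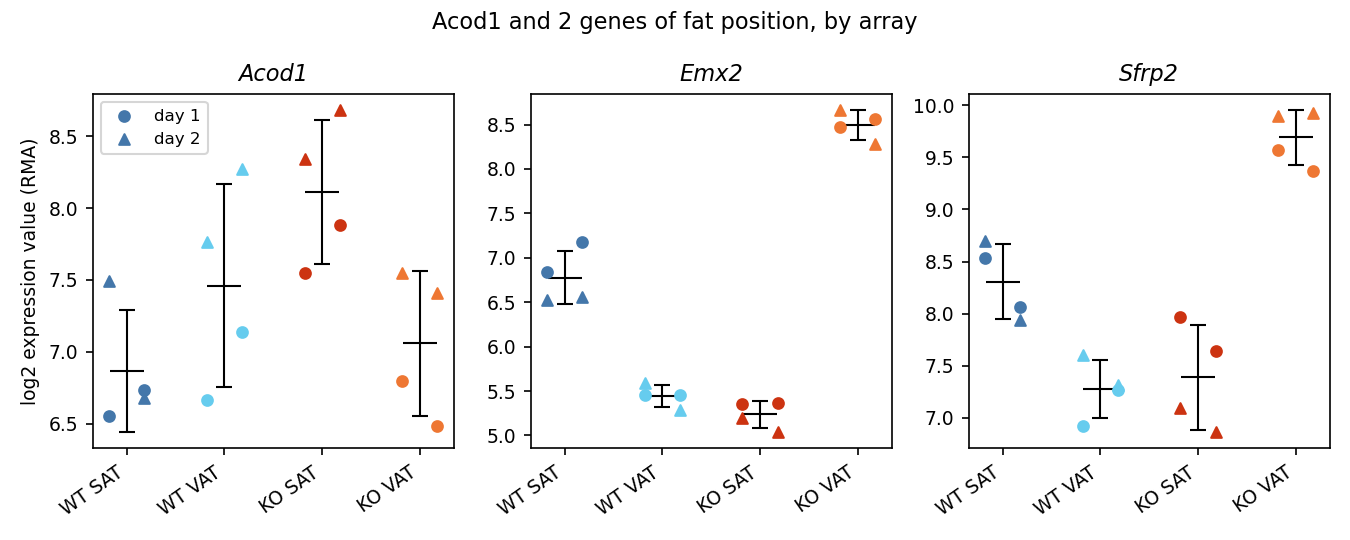
Log2 expression values (RMA, vertical axis) of Acod1, Emx2 and Sfrp2 in the 4 groups (KO stands for KO-LysM). Each symbol is 1 array, circles from day 1 and triangles from day 2, and bars give mean ± SD of 4 pools. Acod1 is highest in KO SAT (mean 8.11), one of the 2 groups where Emx2 and Sfrp2 are low.

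By order of means, KO-LysM SAT (8.11) stood above WT VAT (7.46), KO-LysM VAT (7.06) and WT SAT (6.86), and each group overlapped its neighbour in that order. The knockout difference in SAT was 1.25 ± 0.19 log2 units (SE, adjusted p = 0.000727, limma with Benjamini-Hochberg adjustment over all genes). In VAT it was -0.40 ± 0.19 (adjusted p = 0.149), but after quantile normalization it fell there (-0.57, adjusted p = 0.0160), where 8.79% of all genes were called lower. The difference between these 2 effects, VAT minus SAT, was -1.65 ± 0.27 (adjusted p = 0.00184), in a test that called 2.12% of all genes lower. Within day 1 it was -1.33 (adjusted p = 0.0542) and within day 2 -1.96 (adjusted p = 0.0179), so the day 1 pools alone did not pass. VAT minus SAT was -1.05 ± 0.19 in the knockout (adjusted p = 0.00469), where 2.39% of all genes were called lower. In WT it was 0.59 ± 0.19 (adjusted p = 0.127), with 2.84% of all genes called in either direction. Without the 2 WT VAT pools of day 1 that WT difference became 0.81 and passed (adjusted p = 0.0201), as it did without pool 1 alone (0.74, adjusted p = 0.0248).

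When the pairs were crossed, neither Acod1 difference passed in the reported fit. KO-LysM SAT exceeded WT VAT by 0.65 ± 0.19 log2 units (adjusted p = 0.0526), in a comparison that called 6.89% of all genes. The same difference passed with the dimmest 40% of genes left out (adjusted p = 0.0411), with either other rule for choosing probe sets (adjusted p = 0.0493 and 0.0476), with the trend and robust settings of limma (adjusted p = 0.0491) and on day 1 alone (0.81, adjusted p = 0.0255). It also passed without WT VAT pool 4 (0.80, adjusted p = 0.0159), and without WT SAT pool 2 (adjusted p = 0.0471) or pool 4 (adjusted p = 0.0184). KO-LysM VAT exceeded WT SAT by 0.19 ± 0.19 (adjusted p = 0.416). Averaged over depots, the knockout was higher by 0.42 ± 0.14 (adjusted p = 0.0191), but by 0.19 after quantile normalization (adjusted p = 0.147), and the value was -0.06 with array spread as a term (adjusted p = 0.876). With that term the SAT difference was 0.65 (adjusted p = 0.0629) and the VAT difference -0.77 (adjusted p = 0.00596). The difference between depots in the knockout effect was -1.52 and -1.41 under those 2 settings and passed in both. Leaving out each array in turn, it stayed between -1.79 and -1.44 and passed each time. Without day as a term, however, it did not pass (adjusted p = 0.104), nor did the depot difference in the knockout (adjusted p = 0.166) or the average over depots (adjusted p = 0.165), whereas the SAT difference did (adjusted p = 0.0248).

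Some genes of the Toll-like receptor and interferon response differed between the labelled groups in the direction of Acod1. Of 18 measured genes of that list, 8 had a lower knockout effect in VAT than in SAT (2.12% of all genes did), 10 did not pass and none had a higher one, with a median difference of -0.63 log2 units against 0.02 over all genes. Cxcl10, a T cell chemokine, was at -3.11 ± 0.19 in that test (adjusted p = 9.29e-08), Ccl5, another chemokine, at -3.21 ± 0.24 (adjusted p = 9.8e-07), and the cytokine gene Il6 at -2.97 ± 0.43 (adjusted p = 0.000631). Gbp2, an interferon-induced GTPase, was at -1.87 ± 0.23 (adjusted p = 0.000167). In KO-LysM SAT against WT SAT, 11 of the 18 rose and 1 fell, where 16.7% of all genes rose. In KO-LysM VAT against WT VAT, 2 rose and 5 fell, where 10.2% of all genes rose and 5.76% fell. Ptgs2, the inducible cyclooxygenase, rose there by 2.29 ± 0.38 (adjusted p = 0.00164) and had its highest mean in KO-LysM VAT, at 8.98 log2 units against 7.30 in KO-LysM SAT, the order opposite to Acod1. Within the knockout, 9 of the 18 fell and 1 rose in VAT against SAT (2.39% of all genes fell), and within WT 4 rose and none fell (2.84% of all genes called). In the crossed pairs, 4 of the 18 rose in KO-LysM SAT against WT VAT (6.89% of all genes called), and 6 rose and 3 fell in KO-LysM VAT against WT SAT (18.3% of all genes rose). The share of all genes that fell is not given for the latter pair or for KO-LysM SAT against WT SAT.

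Other cell markers also differed between those groups. Endothelial markers had array means of 6.55 to 6.92 in KO-LysM SAT, above WT SAT (5.53 to 5.82), WT VAT (5.53 to 6.55) and KO-LysM VAT (5.35 to 6.48), with 8 of 8 above background there. Skeletal muscle markers ran the other way, at 7.10 to 7.98 in WT SAT, 5.57 to 6.17 in KO-LysM VAT, 4.82 to 5.17 in WT VAT and 4.75 to 4.95 in KO-LysM SAT. Neutrophil markers were low throughout, with array means of 4.67 to 5.61, and Cxcr2 and Ngp below background in every group. T cell markers had array means of 6.01 to 6.41 in WT SAT, 5.12 to 5.41 in WT VAT, 4.74 to 5.12 in KO-LysM SAT and 5.18 to 5.64 in KO-LysM VAT. In KO-LysM SAT against WT SAT, the 7 measured T cell markers had a median difference of -1.35 log2 units, against -0.05 over all genes. B cell, erythroid and neutrophil markers had medians of -1.13, -1.04 and -0.42 in that comparison. Of 10 stromal markers, 6 rose and 2 fell there (16.7% of all genes rose, and the share that fell is not given). Over both depots 5 rose and 1 fell (22.5% of all genes rose), with a median of 0.37. The part of these cells, and of the seminal vesicle signal, in the results for Acod1 and the other members was not tested. In such bulk samples, fewer cells of a type and less RNA per cell cannot be told apart.

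The genes whose pattern was most like that of Acod1 over the 16 arrays, after day means were removed, were Herc6 (Pearson r = 0.959), Spic (r = 0.954) and Itpkb (r = 0.937). Herc6 is an interferon-induced ubiquitin ligase, Spic a transcription factor of red pulp macrophages and Itpkb an inositol trisphosphate kinase. Against the other 9 members the correlation of Acod1 was between 0.155 with Suclg1 and 0.551 with Dlst. The arrays share group, normalisation and spread, so these correlations are descriptions.

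The other 9 enzymes had no depot difference that passed in either genotype. Their VAT minus SAT differences ran from -0.15 to 0.30 log2 units in WT and from -0.04 to 0.31 in the knockout. The knockout effect also did not pass as different between depots for any of them (-0.11 to 0.37). Suclg2 had the widest of these values, 0.37 ± 0.19 (adjusted p = 0.437).

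**Figure D2:**
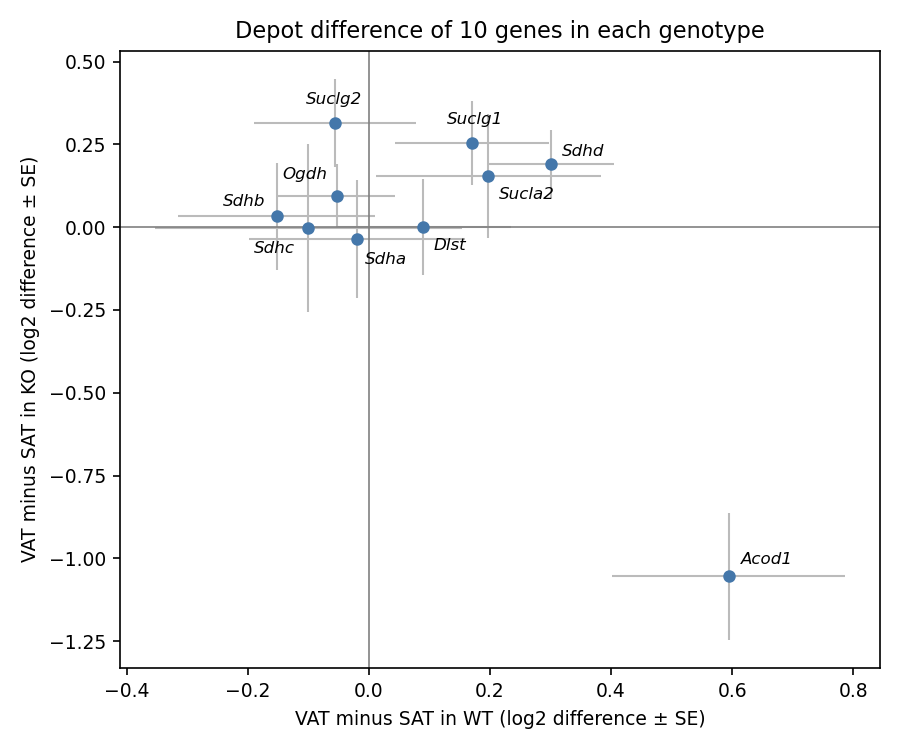
VAT minus SAT difference in WT (horizontal axis) against that in KO-LysM (vertical axis), in log2 units, for the 10 genes, with bars of 1 SE. Acod1 is at 0.59 and -1.05, and the other 9 genes lie between -0.15 and 0.31 on both axes.

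Averaged over both depots, 6 of the 10 genes rose in the knockout and none fell: Sdha, Sdhd (near background), Suclg1, Suclg2, Sucla2 and Acod1. That comparison called 51.7% of all genes in either direction and 22.5% higher, and 30.2% higher after the dimmest 40% of genes were left out. The median difference of the 10 was 0.33 log2 units, against -0.05 over all genes, and all 10 values were above 0. The 10 stromal and 8 endothelial markers had medians of 0.37 and 0.37 in the same comparison. The count moved with the scale of the arrays. After quantile normalization 4 of the 10 rose (Sdha, Sdhd, Suclg2 and Sucla2), with 16.4% of all genes called higher. With the array's interquartile range as a term none of the 10 rose, and Sdhb and Sdhc fell (5.95% of all genes called lower). Array spread differs between the genotypes, so how much of each rise goes with it cannot be told apart from genotype.

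**Figure D3:**
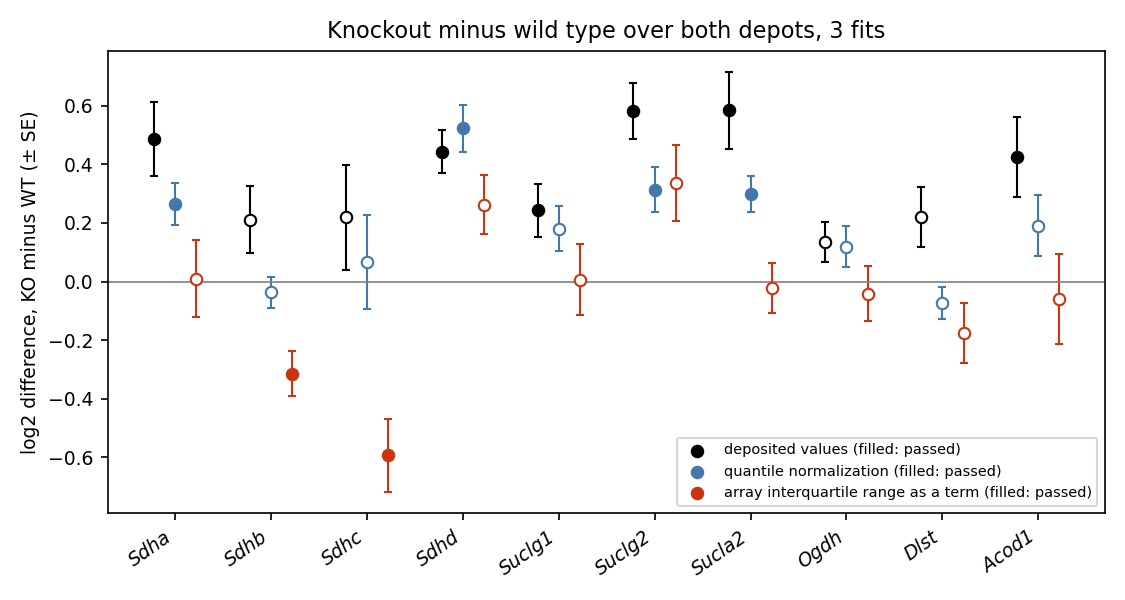
Knockout minus WT difference averaged over both depots (log2 units, bars 1 SE) of the 10 genes in 3 fits: deposited values, quantile-normalised values, and with the array interquartile range as a term. Filled points passed at an adjusted p under 0.05. With the deposited values 6 genes passed above 0, after quantile normalization 4, and with the spread term only Sdhb and Sdhc passed, below 0.

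Among the subunits of succinate dehydrogenase, Sdha rose, as did Sdhd near background, and Sdhb and Sdhc did not pass. Sdha, the flavoprotein that binds succinate, had values of 9.47, 9.65, 9.66 and 9.35 log2 units in WT SAT and, in that order of pools, 8.71, 9.70, 9.90 and 9.73 for WT VAT. In KO-LysM SAT they were 9.97, 9.83, 10.15 and 10.16, and in KO-LysM VAT 10.05, 9.79, 10.06 and 10.05. All 8 knockout pools exceeded the WT SAT pools, whereas the WT VAT pools reached into the knockout range. The rise was 0.49 ± 0.13 (adjusted p = 0.00679) over both depots, 0.50 in SAT (adjusted p = 0.0424) and 0.48 in VAT (adjusted p = 0.0758). The SAT rise did not pass in 10 of 16 fits that left out 1 array, among them each that left out a KO-LysM SAT pool or WT SAT pool 1, 3 or 4 (0.39 to 0.52, highest adjusted p = 0.145). A second probe set of Sdha above background gave 0.48 over both depots.

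Sdhb, the iron-sulphur subunit, lay between 9.05 and 9.33 log2 units in WT SAT and between 8.37 and 9.60 in WT VAT. The knockout ranges were 9.13 to 9.47 for SAT and 9.10 to 9.56 for VAT. Its difference over both depots was 0.21 ± 0.11 (adjusted p = 0.131), and the groups overlapped in every pair. Without WT VAT pool 4 it was 0.28 and passed (adjusted p = 0.0356). Sdhc, a membrane anchor, had a difference of 0.22 ± 0.18 (adjusted p = 0.308). Its lowest values were the day 1 pools of WT VAT, at 5.78 and 6.20, against 7.16 and 7.06 on day 2. Without those 2 pools the Sdhc difference was -0.02. With array spread as a term, the difference was -0.31 for Sdhb (adjusted p = 0.0197) and -0.59 for Sdhc (adjusted p = 0.0103).

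Sdhd, the other membrane anchor, was dim. Its single probe set averaged 4.76 log2 units, just under the background of 4.78, and it exceeded the background on 0 of 4 arrays of WT SAT, 2 of WT VAT, 2 of KO-LysM SAT and 3 of KO-LysM VAT. The WT SAT pools read 4.19, 4.38, 4.56 and 4.43, and the WT VAT pools 4.37, 4.40, 4.86 and 5.12. The KO-LysM SAT pools read 4.55, 4.58, 5.23 and 5.18, and the KO-LysM VAT pools 4.68, 4.95, 5.44 and 5.24. Day 2 pools were higher than day 1 pools in all 4 groups. The rise over both depots was 0.44 ± 0.07 (adjusted p = 0.000619), in SAT 0.50 (adjusted p = 0.00406) and in VAT 0.39 (adjusted p = 0.0238). The VAT rise did not pass without pool 1 or 2 of WT VAT or without KO-LysM VAT pool 2 or 3 (0.34 to 0.37, highest adjusted p = 0.0767). So near background these are not exact sizes, and each count of members that rose is to be read with this limit where it includes Sdhd. The other 9 members had means above background.

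**Figure D4:**
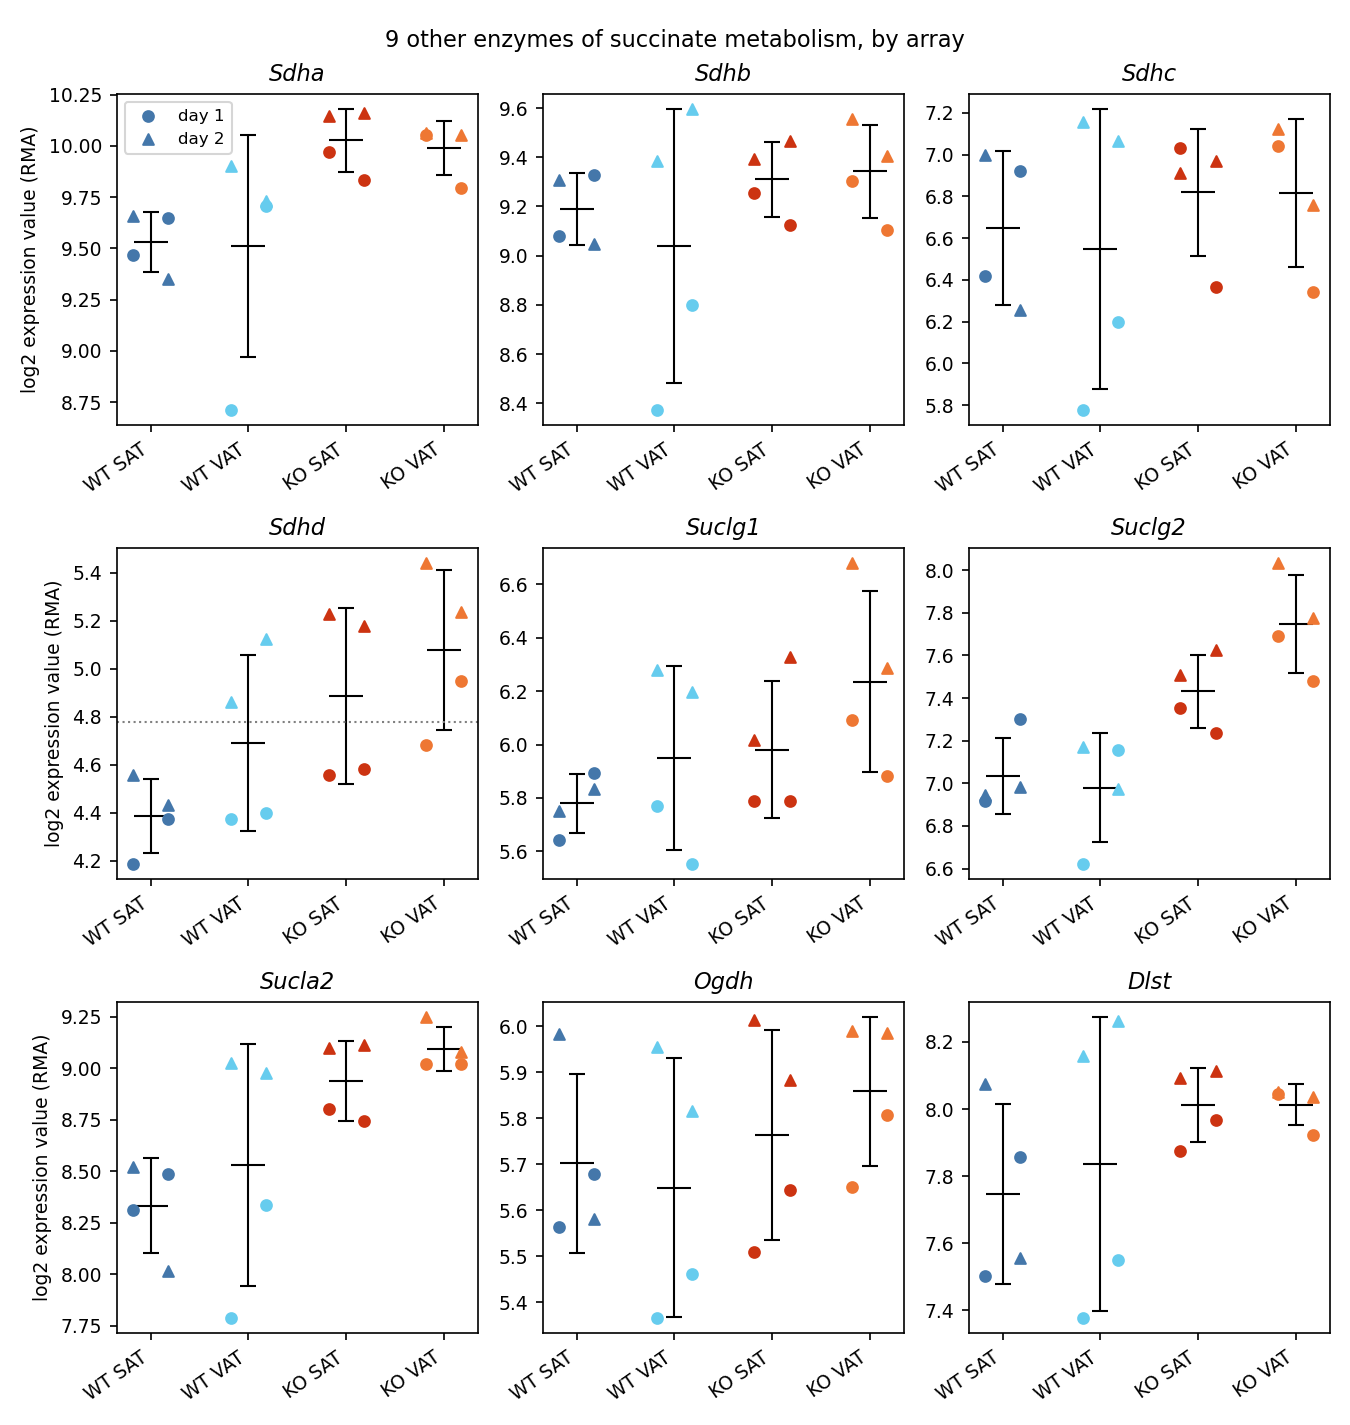
Log2 expression values (RMA, vertical axes) of the 9 enzymes other than Acod1 in the 4 groups (KO stands for KO-LysM), 1 symbol per array, circles from day 1 and triangles from day 2, with mean ± SD of 4 pools. The dotted line in the Sdhd panel is the background of 4.78. WT VAT is the most spread group for 8 of them, and for Sdha its pool 1, at 8.71, is the lowest array.

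All 3 subunits of succinyl-CoA ligase rose in the knockout over both depots. Suclg2, the beta subunit that uses GDP, had the clearest separation, with WT SAT at 6.92, 7.30, 6.94 and 6.98 log2 units and WT VAT at 6.62, 7.16, 7.17 and 6.97. KO-LysM SAT was at 7.36, 7.24, 7.51 and 7.63, and KO-LysM VAT at 7.69, 7.48, 8.04 and 7.78. Every KO-LysM VAT pool exceeded all 8 WT pools, and in SAT 1 knockout pool lay below the highest WT pool. The rise was 0.58 ± 0.09 over both depots (adjusted p = 0.000563), 0.77 ± 0.13 in VAT (adjusted p = 0.00236) and 0.40 ± 0.13 in SAT (adjusted p = 0.0333). The SAT rise did not pass without pool 1, 3 or 4 of either SAT group (0.33 to 0.40, highest adjusted p = 0.103). After quantile normalization the SAT rise also did not pass (0.09, adjusted p = 0.567), nor with array spread as a term (0.09, adjusted p = 0.834). The average over depots was 0.31 after quantile normalization (adjusted p = 0.00582) and 0.34 with the spread term (adjusted p = 0.135). A second Suclg2 probe set lay below background and says nothing on this.

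Sucla2, the beta subunit that uses ADP, read 8.32, 8.49, 8.52 and 8.01 in the WT SAT pools and 7.79, 8.34, 9.03 and 8.98 in those of WT VAT. It was at 8.80, 8.75, 9.10 and 9.12 in KO-LysM SAT and 9.02, 9.02, 9.25 and 9.08 in KO-LysM VAT, above every WT SAT pool. Against the day 2 pools of WT VAT, 4 of the 8 knockout pools lay above both and 2 below both. The rise was 0.58 ± 0.13 over both depots (adjusted p = 0.00336), 0.61 in SAT (adjusted p = 0.0231) and 0.56 in VAT (adjusted p = 0.0523). The SAT rise did not pass without WT SAT pool 4 (0.43, adjusted p = 0.0880) or without KO-LysM SAT pool 1, 3 or 4 (highest adjusted p = 0.0568). A dimmer Sucla2 probe set above background was lower in the knockout by mean, at -0.18, so the probe sets of this gene disagree. Suclg1, the alpha subunit shared by both forms, ranged from 5.55 to 6.68 over all arrays. Its rise of 0.24 ± 0.09 (adjusted p = 0.0362) was the smallest that passed, and it did not pass after quantile normalization (0.18, adjusted p = 0.0743) or on either day alone. It also did not pass in 8 of 16 fits without 1 array, namely those that dropped pool 3 or 4 of WT SAT, pool 2 of WT VAT, KO-LysM SAT pool 1, 2 or 4, or KO-LysM VAT pool 1 or 3 (0.20 to 0.24, highest adjusted p = 0.0797).

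Neither measured subunit of 2-oxoglutarate dehydrogenase passed. Ogdh, the subunit that decarboxylates 2-oxoglutarate, ranged from 5.37 to 6.01 log2 units, with a knockout difference of 0.14 ± 0.07 over both depots (adjusted p = 0.106). Dlst, the subunit that forms succinyl-CoA, ranged from 7.38 to 8.26, with a difference of 0.22 ± 0.10 (adjusted p = 0.0808). The latter passed when pool 2 of WT SAT (adjusted p = 0.0390) or pool 4 of WT VAT (adjusted p = 0.0310) was left out. The highest Dlst values came from the day 2 pools of WT VAT, at 8.16 and 8.26, and its lowest from pool 1 of the same group. A second Dlst probe set above background was lower in the knockout, at -0.20.

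Within a depot as labelled, 5 of the 10 rose in KO-LysM SAT against WT SAT (Acod1, Sdha, Sdhd, Suclg2 and Sucla2), where 16.7% of all genes were called higher. Acod1, Sdha and Sucla2 did not overlap between those groups, as did not 16% of all genes in that direction. In VAT 2 of the 10 rose, Sdhd and Suclg2, where 10.2% of all genes were called higher. After quantile normalization Sucla2 rose there too (0.32, adjusted p = 0.0210), with 9.26% of all genes called higher. Suclg2 alone did not overlap there, a state reached by 6.48% of all genes in that direction. The SAT and VAT comparisons have no group in common, but they are not independent tests. They come from 1 fit with a common day term and error, and each of them is part of the average over depots. In KO-LysM VAT against WT SAT, 4 of the 10 rose, with 18.3% of all genes called higher: Sdhd by 0.69, Sucla2 by 0.76, Suclg1 by 0.46 and Suclg2 by 0.71. Sdha, Sdhd, Suclg2 and Sucla2 did not overlap in that pair, as did not 18.5% of all genes in that direction. In KO-LysM SAT against WT VAT none of the 10 passed by limma, in a comparison that called 6.89% of all genes.

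The day 1 pools of WT VAT set many of these ranges. Without them, VAT minus SAT in WT passed for 3 members, Acod1 (0.81), Dlst (0.40) and Sucla2 (0.61), where none had passed with all arrays. The share of all genes called higher in that comparison was then 15.1%. The knockout comparison in VAT kept 1 call, Suclg2 at 0.75, with 3.1% of all genes called higher. The average over depots kept 4, Sdha, Sdhd, Suclg2 and Sucla2, with 15.3% of all genes called higher.

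Sdha varied over the arrays most like Vdac2, a channel of the outer mitochondrial membrane (r = 0.980), Lmbrd1 (r = 0.977) and Serinc1 (r = 0.974). Sucla2 was most like Hspa4 (r = 0.986), Orc2 (r = 0.986) and Eif3i (r = 0.985), and Suclg2 most like Nlk (r = 0.949), 2210408K08Rik (r = 0.946) and Unkl (r = 0.945). For Sdhd the nearest were Aifm2 (r = 0.966), Coq8a (r = 0.960) and Adk (r = 0.950), and for Suclg1 Atpaf1 (r = 0.907), Slc33a1 (r = 0.905) and Mcts2 (r = 0.891). Between members, Sdha and Sucla2 had r = 0.897, Sdhb and Sdhc 0.880 and Suclg1 and Suclg2 0.729 over the 16 arrays.

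Most of the neighbouring cycle enzymes also rose in the knockout. Of 15 other measured cycle and pyruvate enzymes, 10 rose and 1 fell in the knockout over both depots, against 22.5% of all genes called higher and 51.7% called in either direction. Dlat and Pdhx, parts of pyruvate dehydrogenase, rose by 1.07 ± 0.16 and 0.41 ± 0.07, its subunit Pdha1 by 0.73 ± 0.14 and cytosolic malate dehydrogenase Mdh1 by 0.65 ± 0.11. Pdhx lay below or near background, with group means of 4.287 to 4.805. The median of the 15 was 0.41 log2 units. For 1 of them the knockout effect was higher in VAT than in SAT, pyruvate carboxylase Pcx (0.68 ± 0.16, adjusted p = 0.0201), opposite in sign to Acod1.

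Of 11 measured genes of other routes to succinate, 3 passed, against 51.7% of all genes. Those that rose were Pcca of propionate breakdown (0.42 ± 0.12) and glutamate dehydrogenase Glud1 (0.34 ± 0.11). Pcca did not rise alike in both depots, with means of 7.42 log2 units in WT SAT and 7.34 in KO-LysM SAT. In WT VAT it averaged 7.10 and in KO-LysM VAT 8.01. Its knockout effect was higher in VAT than in SAT by 0.99 ± 0.25 (adjusted p = 0.0323, limma). Abat, which starts the breakdown of GABA, fell by 0.24 on the log2 scale (SE 0.09). Its group means, 4.64 to 5.00 log2 units, lay near background. Of the 4 assembly factors of succinate dehydrogenase, Sdhaf1 rose by 0.44 ± 0.16 (adjusted p = 0.0303) and the other 3 did not pass. Among nuclear subunits of complex I, 12 of 28 rose and none fell (Ndufa5 by 0.44, Ndufb3 by 0.41). Among those of complexes III, IV and V, 10 of 29 rose and none fell (Uqcrb by 0.68, Uqcrfs1 by 0.58). All of these subunits had means above background. Of all genes 22.5% rose, and 30.2% with the dimmest 40% left out. Counts for these lists after quantile normalization or with array spread as a term are not given.

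A further list held carriers of succinate and related acids, receptors such as Sucnr1, and genes of the hypoxia pathway that succinate is known to touch. Of its 11 measured genes, 7 had means above background. Over both depots 4 rose and 2 fell, so that 6 of 11 passed, close to the 51.7% of all genes. Hif1a, the oxygen-regulated transcription factor, rose by 0.73 ± 0.10, its hydroxylase gene Egln3 by 0.84 ± 0.11, Vhl, which marks it for degradation, by 0.49 ± 0.09, and the monocarboxylate carrier Slc16a1 by 0.98 ± 0.23. The 2 that fell, named after their values were seen, were the mitochondrial dicarboxylate carrier Slc25a10 (-0.30 ± 0.08, adjusted p = 0.00692) and the citrate carrier Slc13a5 (-0.22 ± 0.07, adjusted p = 0.0185), the latter at or near background with group means of 4.52 to 4.81. The knockout effect on Egln3 was higher in VAT than in SAT by 2.04 ± 0.23 (adjusted p = 5.5e-05). Egln3 thus differed between the labelled depots in the direction opposite to Acod1, and in the direction of Emx2.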

How the data were processed

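Macrophages from mouse fat were profiled on 16 arrays, 4 per group, with groups, pools and days taken from the labels. The authors deposited log2 values, 1 per probe set and array, and the submitters' processing notes name RMA and affy for them without versions. RMA as usually run subtracts background and sets probe values of all arrays to common quantiles, which can compress small changes. The deposited probe set values did not share quantiles, with interquartile ranges of 2.01 to 2.63 log2 units over the arrays. The reason for this was not tested. The 45141 probe sets included 104 controls; 28898 matched 1 gene, 551 several (left out) and 15588 were not listed in the probe table used here. Of 17097 genes, 7180 had more than 1 probe set, and the brightest was used. Values ran from 2.91 to 13.19. Arrays carry no read depth, and precision is limited by their number.

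With limma 3.58.1 in R 4.3.3, a linear model with group and day was fitted to all 17097 genes and all 16 arrays (lmFit, eBayes). A gene passed at a two-sided Benjamini-Hochberg adjusted p under 0.05 in each of 8 comparisons. Errors of differences are standard errors of the fit. Tables and plots used Python 3.11.15, pandas 2.3.3 and matplotlib 3.10.9. The model was first tested on simulated data. All members are named. In each pathway list up to 4 genes with the smallest p among those that passed were eligible, and for each member that passed the 3 most correlated genes. The members and lists were chosen with earlier results of these data known. Alternatives covered the day term, the days alone, pool number as a block, the arrays fitted, a filter on the dimmest 40%, the choice of probe set, normalisation, array spread, array weights, eBayes settings and each array left out. Leaving out the WT VAT pools of day 1 was chosen after seeing the data, as was its combination with quantile normalization.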

Additional observations from a re-analysis of the deposited data

Results flagged for a closer look

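The knockout effect on Acod1 differed between the labelled depots by -1.65 log2 units, VAT minus SAT (adjusted p = 0.00184, limma, 4 pools per group). The SAT pools were higher in the knockout in 4 of 4 cases against the WT SAT mean.

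In 40 groups of 4 values (10 genes in 4 groups), 3 pools stood apart from the rest of their group by Dixon's test, and chance alone gives about 1 in 20 such groups. Sdha in WT VAT pool 1 was at 8.71 log2 units, a gap of 0.834 of the group's range. Sdha in KO-LysM VAT pool 2 was at 9.79 (0.955 of the range), and Dlst in the same pool was at 7.92 (0.872), in groups whose ranges were narrow.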

How the results depend on the processing

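The counts of members called moved by over 1.5 times as follows, and the cause was not tested. VAT minus SAT in WT gave 0 calls in the reported fit, 3 on day 2 alone, 2 with array spread as a term (both falls, Sdhb and Sdhc), 3 without the WT VAT pools of day 1 and 1 with that and quantile normalization together. VAT minus SAT in the knockout gave 1 call, 0 without the day term or on day 2 alone, and 2 with the compared arrays alone, with array weights, and with quantile normalization without those pools (a fall of Acod1 and a rise of Suclg2 each time). The knockout in SAT gave 5, but 1 without the day term, 1 on day 1, 3 after quantile normalization and 2 with the spread term, which are not rises but falls of Sdhb (-0.53) and Sdhc (-0.84). The knockout in VAT gave 2, but 1 without the day term, on day 2, with the compared arrays alone and under both settings without the WT VAT pools of day 1. It gave 5 on day 1 and 4 with the probe set of largest interquartile range or after quantile normalization, in the latter case 3 rises (Sdhd, Sucla2, Suclg2) and a fall of Acod1 (-0.57). The average over depots gave 6, and 2 with the spread term, again falls of Sdhb and Sdhc. The depot difference in the knockout effect gave 1, but 0 without the day term or on day 1, and 2 with the spread term (Acod1 lower, Sdhb higher) or with quantile normalization without those pools (Acod1 lower, Suclg2 higher). KO-LysM SAT minus WT VAT gave 0, but 3 on day 1, 2 with the filter, 2 with the mean of probe sets, 3 with the largest interquartile range, 1 after centring and 1 with trend and robust settings. KO-LysM VAT minus WT SAT gave 4, and 1 on day 1, and with the spread term Sdhd rose and Sdhb and Sdhc fell. Leaving out 1 array at a time, the counts ran from 0 to 1, 1 to 1, 2 to 5, 1 to 4, 5 to 8, 1 to 1, 0 to 2 and 3 to 5 in this order.

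Signs turned for some values. With the spread term, the SAT difference was -0.10 for Sdha and -0.15 for Sucla2, and the average over depots -0.061 for Acod1, -0.18 for Dlst, -0.041 for Ogdh, -0.31 for Sdhb, -0.59 for Sdhc and -0.022 for Sucla2. Quantile normalization gave -0.072 for Dlst and -0.037 for Sdhb, and without the WT VAT pools of day 1 -0.11 for Dlst, -0.10 for Sdhb and -0.15 for Sdhc. Without those pools alone Sdhc was at -0.024. Acod1 in KO-LysM VAT minus WT SAT was at -0.0059 on day 1, -0.067 after quantile normalization (also -0.067 without those pools), -0.36 with the spread term and between -0.018 and 0.29 with each array left out.

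Pools of the same number did not deviate together as a rule (5 of 24 pairs had r over 0.1, range -0.67 to 0.53). These deviations are from group and day means of few arrays, which itself lowers such correlations. Whether pools of the same number shared animals therefore cannot be told from them. With pool number as a block, the 8 counts were 0, 1, 4, 2, 5, 1, 0 and 4.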
